A study of Homo sapiens with 6 samples.

Results

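The genes encoding the SoxE transcription factors (SOX8, SOX9 and SOX10) and the SoxD transcription factors (SOX5, SOX6 and SOX13) were examined in a map of histone H3 lysine 27 acetylation (H3K27ac) from clear cell sarcoma (CCS) cells. Every H3K27ac peak that overlapped 1 of these 6 genes, or lay within 200 kb of it, was taken. This gave 76 of the 30784 peaks in the list, or 0.247%. SU-CCS-1 is an established human CCS cell line carrying the EWSR1::ATF1 fusion gene, and no treatment is given in the labels. The 6 samples comprised 3 H3K27ac chromatin immunoprecipitations and 3 inputs, which are chromatin sequenced without immunoprecipitation, all of this 1 line and genotype. The deposited list merged the H3K27ac samples and gave only positions, so that widths and positions below carry no replicate error, no peak height and no read count, and nothing in it could be tested between samples. A gene without a peak is a gene not called, which does not show that it lacked acetylation.

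SOX proteins bind the minor groove of DNA through a high mobility group (HMG) box and bend it. SoxE proteins carry transactivation domains and direct neural crest, glial and cartilage development: SOX10 specifies melanocytes and Schwann cells, SOX9 is the central regulator of cartilage, and SOX8 overlaps with both. SoxD proteins lack a transactivation domain of their own, form dimers through a coiled coil, and assist SOX9 in cartilage or modulate SOX10 in glia and melanocytes. H3K27ac marks active promoters and enhancers, and CCS is known for expressing melanocytic genes.

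The 6 genes differed widely in acetylation. SOX10 lay in one of the broadest acetylated regions in the genome, SOX8 and SOX13 had peaks at their start sites and further peaks nearby, SOX6 had peaks at 4 separate promoters, SOX5 had a single peak, and SOX9 had none at the gene. SOX10 accounted for 45 of the 76 peaks (59.2%) and for 71.1% of their summed width of 179.89 kb. The median width was 1275 bp, against 1060 bp over the whole list, and the range was 400 to 18040 bp. Of the 76 peaks, 21 touched a gene body or promoter of the 6 genes.

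**Figure D1:**
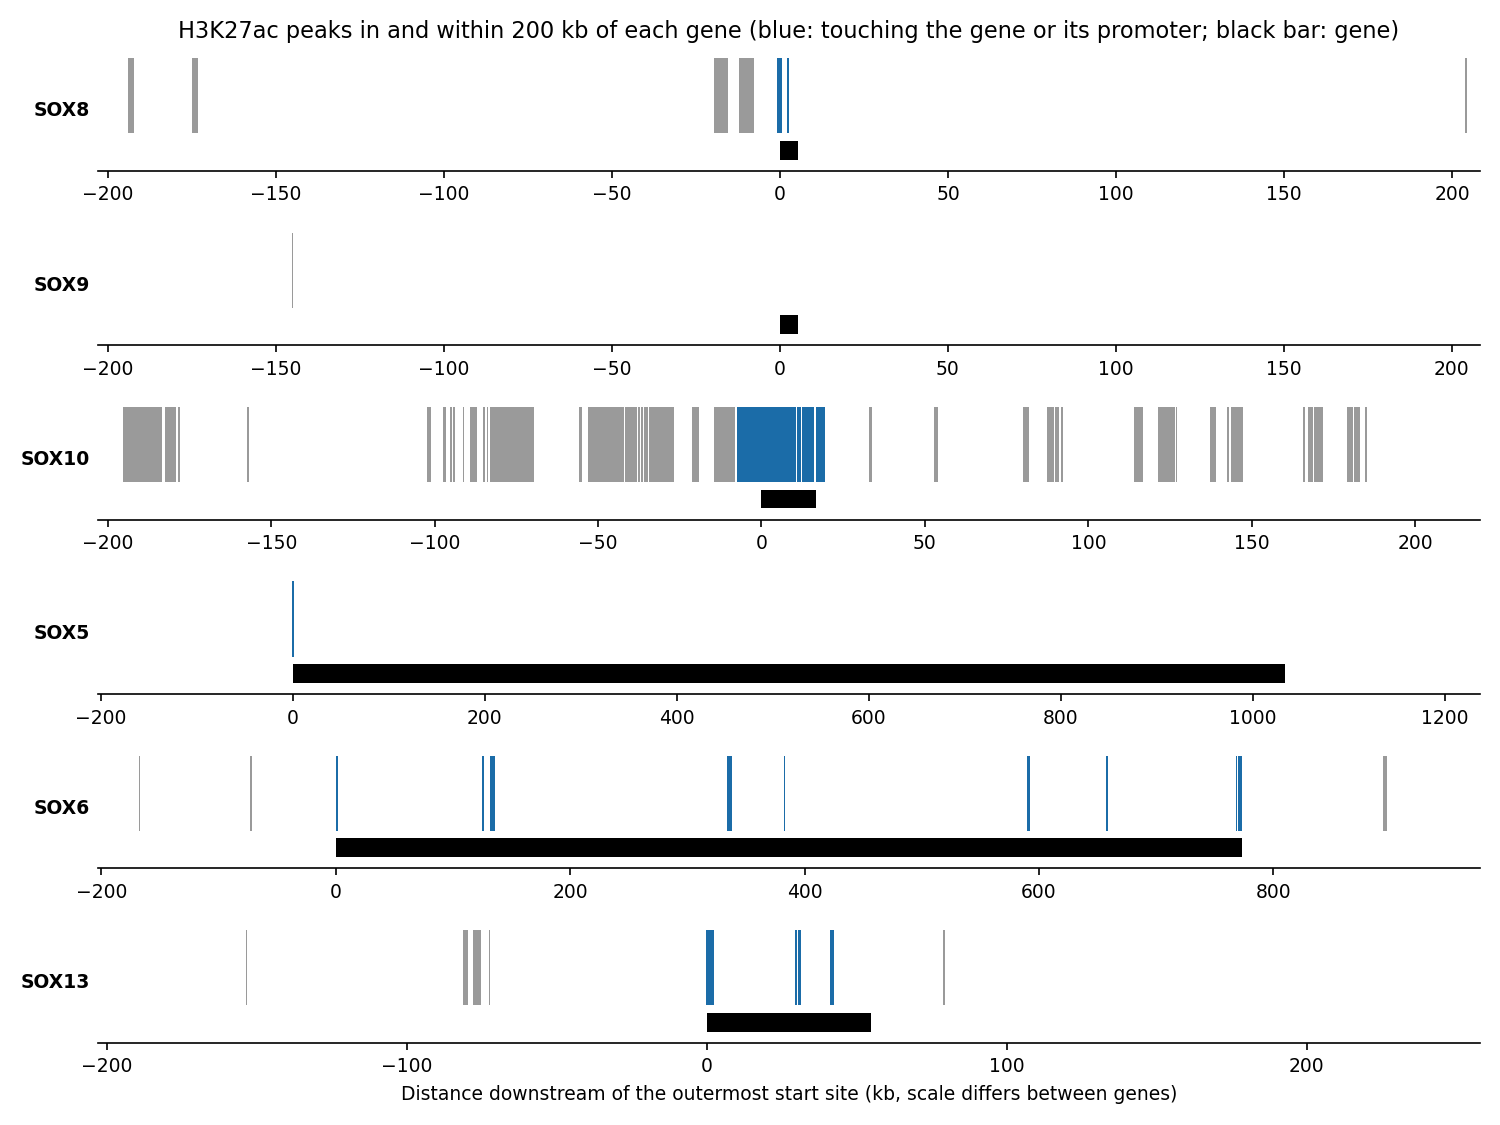
H3K27ac peaks in and within 200 kb of each SoxE and SoxD gene, by distance downstream of the outermost annotated start site in kb. Blue peaks touch the gene or lie within 3 kb of one of its start sites, grey peaks do not, the black bar is the gene, the horizontal scale differs between genes, and the narrowest peaks are drawn at a minimum width. SOX10 has 45 peaks, SOX6 has 13, SOX13 has 9, SOX8 has 7, and SOX5 and SOX9 have 1 each.

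The stretches that follow are those on which the descriptions of sequence turn. The first is part of a break between peaks of the acetylated region around SOX10, and the other lies in a peak beside SOX8. Both were picked for the motifs marked in them. They are reference sequence of hg38, plus strand, 5′ to 3′, and capitals mark respectively the E-box CATGTG read on either strand, and a pair of facing SOX sites.

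SOX10 break between peaks, part (chr22:38025304-38025444): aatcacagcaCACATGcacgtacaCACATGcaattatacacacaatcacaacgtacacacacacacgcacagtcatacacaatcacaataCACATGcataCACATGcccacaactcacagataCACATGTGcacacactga
SOX8 neighbouring peak (chr16:972636-972791): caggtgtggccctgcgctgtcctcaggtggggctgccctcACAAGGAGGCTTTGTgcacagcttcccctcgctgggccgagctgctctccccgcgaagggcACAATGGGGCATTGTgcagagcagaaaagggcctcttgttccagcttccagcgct

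Promoters of the SoxD genes were taken from RefSeq (GRCh38.p14), each with 250 bases before and 50 bases after a start site, on the strand of the gene. They are shown because start sites of 1 gene differed in whether a peak covered them. Capitals mark the SOX sites ACAAAG and ACAATG on either strand.

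SOX5 outer promoter, start in a peak (chr12:24562442-24562741): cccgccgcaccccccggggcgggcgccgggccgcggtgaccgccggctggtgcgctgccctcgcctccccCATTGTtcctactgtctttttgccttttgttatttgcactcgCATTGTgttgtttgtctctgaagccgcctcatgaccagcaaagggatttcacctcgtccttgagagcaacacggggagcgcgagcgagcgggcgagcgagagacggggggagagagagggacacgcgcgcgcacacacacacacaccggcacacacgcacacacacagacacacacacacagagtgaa
SOX6 outer promoter, start in a peak (chr11:16738428-16738727): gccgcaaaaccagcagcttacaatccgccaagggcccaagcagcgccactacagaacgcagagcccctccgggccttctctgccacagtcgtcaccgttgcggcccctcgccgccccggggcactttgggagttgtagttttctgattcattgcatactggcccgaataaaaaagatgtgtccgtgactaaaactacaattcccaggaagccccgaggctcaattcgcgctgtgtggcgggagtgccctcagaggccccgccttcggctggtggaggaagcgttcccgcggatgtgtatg
SOX6 canonical promoter, start in a peak (chr11:16356497-16356796): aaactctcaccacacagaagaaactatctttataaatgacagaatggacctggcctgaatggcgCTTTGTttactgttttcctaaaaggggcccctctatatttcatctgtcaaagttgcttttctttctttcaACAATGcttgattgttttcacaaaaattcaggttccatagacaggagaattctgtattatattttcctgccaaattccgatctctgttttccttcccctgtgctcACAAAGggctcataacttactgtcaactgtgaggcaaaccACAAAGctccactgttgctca
SOX6 promoter with no peak (chr11:16476339-16476638): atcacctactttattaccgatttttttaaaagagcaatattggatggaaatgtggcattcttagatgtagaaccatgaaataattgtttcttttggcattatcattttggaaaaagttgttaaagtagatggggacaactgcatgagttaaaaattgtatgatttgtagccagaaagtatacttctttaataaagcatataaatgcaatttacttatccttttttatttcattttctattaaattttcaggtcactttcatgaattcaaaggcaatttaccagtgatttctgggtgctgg
SOX13 promoter, start in a peak (chr1:204072865-204073164): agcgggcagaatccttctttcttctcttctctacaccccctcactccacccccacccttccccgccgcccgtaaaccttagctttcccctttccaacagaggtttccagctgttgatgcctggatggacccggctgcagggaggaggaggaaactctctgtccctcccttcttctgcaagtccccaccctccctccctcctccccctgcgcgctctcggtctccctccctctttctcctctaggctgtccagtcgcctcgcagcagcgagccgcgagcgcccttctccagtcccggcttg

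A promoter peak, defined as a peak with any base within 3 kb of any transcript start, was present at 5 of the 6 genes. Over all 20033 protein-coding genes the share was 63.4%. SOX9 was the gene without one. The start of the canonical transcript lay inside a peak at SOX8, SOX10, SOX6 and SOX13, which is 4 of 6 beside 53.5% of protein-coding genes. Of the 58 distinct start sites of the 6 genes, 27 lay in a peak, beside 41.1% of all start sites of protein-coding genes. With 6 genes, nothing particular to the group was read from these counts.

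The amount of acetylated sequence was measured as the bases in peaks within 100 kb of the outermost start site. The median protein-coding gene had 4.35 kb and the quartiles were 1.53 and 10.09 kb. SOX10 had 87.02 kb, the 4th highest value of 20033 genes. SOX13 had 11.04 kb (rank 4485) and SOX8 had 10.43 kb (rank 4806), both just above the upper quartile. SOX6 had 2.11 kb (rank 13724) and SOX5 had 1.07 kb (rank 16029), the latter below the lower quartile. In a gene as long as SOX6 the window misses start sites further inside. Over the whole SOX6 gene and 200 kb to either side, peaks summed to 24.37 kb. SOX9 was the 1 of the 6 with 0 kb, as were 13.4% of protein-coding genes (2691). No replicate spread was available to say whether neighbouring ranks differ.

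**Figure D2:**
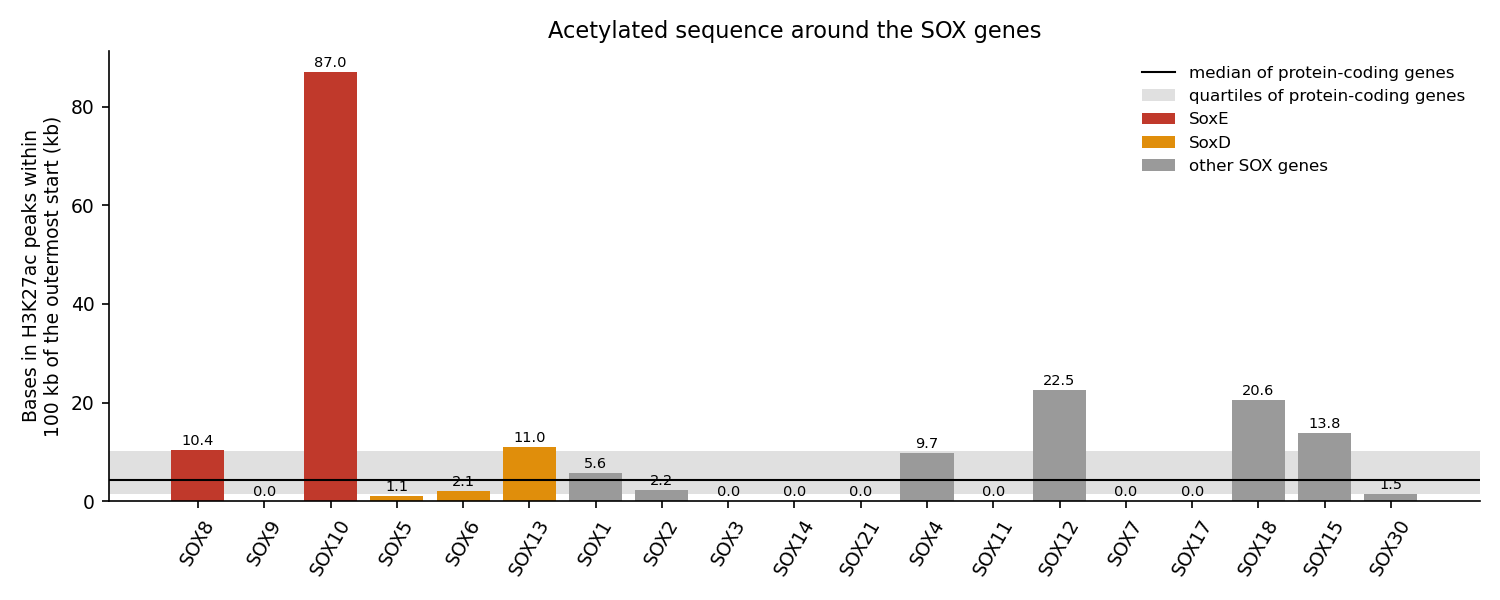
Bases in H3K27ac peaks within 100 kb of the outermost start, in kb, for the SoxE genes (red), the SoxD genes (orange) and the 13 other SOX genes (grey). Each bar is 1 value from the merged list, the line is the median of protein-coding genes (4.35 kb) and the band spans their quartiles. SOX10 stands at 87.02 kb, and the next highest SOX gene is SOX12 at 22.53 kb.

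SOX10 (ENSG00000100146.20) lies on the minus strand at chr22:37970686-37987422. Peaks covered 92.8% of the gene body, a higher share than in 99.1% of protein-coding genes, whose median was 1.45%. The widest of these peaks measured 18.04 kb (chr22:37976921-37994960) and ranked 11th in width of all 30784. It contained all 9 annotated SOX10 start sites, including the canonical start at position 37984555. This peak also lay within 3 kb of a start site of the overlapping gene POLR2F. The remaining peaks at the gene were 1.34 kb wide and centred in intron 3, 3.62 kb wide and centred in the untranslated part of exon 4, and 2.85 kb wide at the 3′ end.

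When neighbouring peaks were joined over the distance the study used to call super-enhancers, the 4 peaks at SOX10 and 9 peaks beyond its start formed 1 region at chr22:37967911-38043220. Its 13 peaks summed to 59.94 kb and filled 79.6% of a 75.31 kb span. The region ranked 6th of 17049 by summed width. A point was set where the curve of ranked widths reached a slope of 1, at 7.99 kb, and 879 regions lay past it. At 2 of the 6 genes, SOX10 and SOX8, an overlapping region lay past this point, beside 7.58% of protein-coding genes. This ranking used width alone, since the list held no signal, and is not a ranking of enhancer strength.

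Most of the SOX10 region lay beyond the start of the gene. The 9 peaks beyond it summed to 34.09 kb (56.9% of the width), and the 4 touching SOX10 summed to 25.85 kb. The region reached 55.8 kb beyond the outermost start, across the body of POLR2F, a shared RNA polymerase subunit gene transcribed on the opposite strand (chr22:37952607-38041915). A peak of 11.12 kb (chr22:38029521-38040640) centred 47.7 kb upstream of SOX10 ranked 70th in width, and peaks of 7.58 and 6.27 kb lay at 30.7 and 11.4 kb. The 11.12 kb peak also lay within 3 kb of start sites of POLR2F, ENSG00000222044 and ENSG00000273214. The peaks of 7.58 and 6.27 kb lay at no promoter. Which of the genes sharing this acetylated sequence it serves cannot be told apart from positions. From chromatin contact data of SU-CCS-1, the study names SOX10 among genes with promoters in loops to super-enhancers. It does not say which super-enhancers these were.

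The region was nearly continuous. Of its 12 breaks, 9 were no longer than 1 kb, the median was 410 bp, and the range was 240 to 5530 bp. The breaks longer than 1 kb were 4550, 5530 and 1570 bp. Outside it, the nearest peaks lay 13.45 kb away on the SOX10 side and 13.77 kb away on the far side, both only slightly beyond the joining distance.

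**Figure D3:**
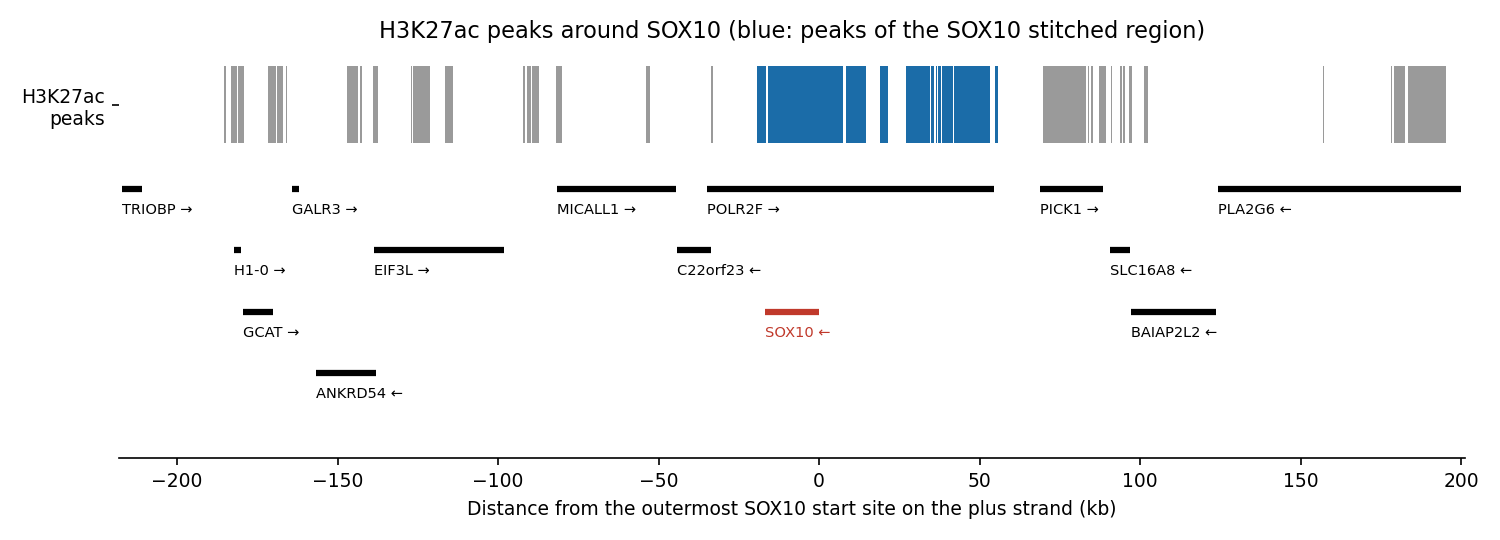
H3K27ac peaks around SOX10 by distance in kb from its outermost start site, plotted along the plus strand so that SOX10 runs to the left. Blue peaks form the SOX10 region of 13 peaks, grey peaks are the others within 200 kb, bars are protein-coding genes, and arrows give their direction. The region runs from the 3′ end of SOX10 to just past the far end of POLR2F.

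The wider neighbourhood of SOX10 was also acetylated. Beyond the 4 peaks at SOX10, 26 peaks lay within 3 kb of a start site of another coding or long noncoding gene and 15 did not. These counts include the 9 peaks of the SOX10 region beyond its start. Of the 30771 peaks outside that region, 18850 lay within 3 kb of a start site of a gene of any type. Nothing particular to this neighbourhood was therefore read from the counts. A 13.59 kb peak lay at PICK1, which encodes a PDZ-domain trafficking protein, in a region ranked 138th. An 11.88 kb peak lay at PLA2G6, a phospholipase gene, in a region ranked 247th. With the pair in the SOX10 region, 4 of the 98 peaks wider than 10 kb in the whole list lay within 200 kb of SOX10. Peaks in the other direction were narrower, the widest being a 4.93 kb peak at EIF3L, a translation initiation factor gene.

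Protein-coding genes nearest to SOX10 in acetylated sequence, each over 1 Mb from SOX10 and from each other, were SLC25A47 (91.11 kb, rank 3), F7 (84.7 kb, rank 5), TALDO1 (84.63 kb, rank 6), URB1 (81.34 kb, rank 9) and TRAF2 (77.86 kb, rank 12). The likeness is in 1 summed width per gene in 1 list. SLC25A47 and F7 had no promoter peak of their own, whereas SOX10 had 3, so a high sum within 100 kb does not place the peaks at the gene itself.

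SOX8 (ENSG00000005513.10, chr16:981770-986979, plus strand) had a 1.53 kb promoter peak (chr16:980721-982250) over both of its start sites and a 0.44 kb peak in intron 2. Peaks covered 17.7% of the gene body. Peaks of 4.19 and 4.27 kb lay 17.5 and 10 kb upstream, inside LMF1, a lipase maturation gene, and within 3 kb of LMF1 start sites. These 4 peaks formed the SOX8 region, 10.43 kb of peaks in 22.19 kb, ranked 534th and past the slope-1 point. The 4.19 and 4.27 kb peaks held most of that width, and the SOX8 promoter peak also lay at the promoters of LMF1 and the noncoding gene CEROX1. The place past the slope-1 point was lost when peaks were joined over 5 kb (rank 6783) or 25 kb (rank 752, with 726 past the point), and no SOX8 region remained once peaks within 2.5 kb of start sites were left out.

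SOX9 (ENSG00000125398.8, chr17:72121020-72126416, plus strand) had no peak in its body, at its promoter or within 100 kb. The single peak within 200 kb was 430 bp wide (chr17:71975691-71976120) and ended 144.9 kb upstream of the start. SOX9 sits between long stretches without protein-coding genes. The upstream stretch, 1941 kb to KCNJ2, held 6 peaks that covered 0.224% of it. The downstream stretch, 519.5 kb to SLC39A11, held 19 peaks that covered 5.168%, of which the nearest was 375.3 kb from SOX9. Of these, 17 formed a region of 25.82 kb of peaks in 79.51 kb (chr17:72554701-72634210) over the long noncoding gene LINC00511. This region ranked 69th and lay 428.3 kb beyond SOX9. Whether it contacts SOX9 was not tested.

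SOX5 (ENSG00000134532.20, chr12:23529504-24562544, minus strand) spans 1033.04 kb and had 1 peak, 1.07 kb wide (chr12:24562141-24563210), at its outer promoter. This peak held the starts of 7 of 23 transcripts and 5 of 20 distinct start sites. The canonical start at position 23949670 lay 612.5 kb from the nearest peak. Peaks covered 0.0391% of the gene body. The acetylated SOX5 promoter was CpG-rich, with an observed over expected CpG ratio of 0.796 in the peak and a GC content of 63.2%.

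SOX6 (ENSG00000110693.19, chr11:15966449-16739591, minus strand) spans 773.14 kb and had 10 peaks in its body, of which 4 were promoter peaks. The outer promoter carried a 1.6 kb peak that also lay at the promoter of C11orf58. Further promoter peaks of 4.71, 4.17 and 1.54 kb lay 133.7, 335.8 and 382.9 kb downstream of the outermost start, and the last held the canonical start at position 16356546. In all, 7 of 17 start sites lay in a peak. A protein-coding transcript starting at position 16476388 lay 70.5 kb from the nearest peak.

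The SOX6 promoters differed in base composition as well as in acetylation. The peaks at the outer promoter and at 133.7 kb had CpG ratios of 0.71, and the 4.17 and 1.54 kb peaks had ratios of 0.189 and 0.147. The canonical SOX6 promoter printed above, with a GC content of 40%, held 3 copies of ACAAAG and 1 of ACAATG. Of 35116 RefSeq promoters, with a median GC content of 58.7%, 16.1% held ACAAAG and 10.8% held ACAATG. Where the start lay in no peak (median GC 50.7%) the shares were 19.8% and 14.3%. Where it lay in a peak (median GC 67%) they were 10.4% and 5.49%. Promoters were not matched for base composition. The SOX5 promoter held 2 copies of ACAATG, and the SOX6 promoter with no peak, the outer SOX6 promoter and the SOX13 promoter held neither. A match to these short letters is a description and not evidence of binding. At the other end of SOX6, peaks of 4.08 and 1.06 kb were centred in the untranslated part of the last exon, and 3 peaks of 0.42 to 1.03 kb lay in introns 6 and 9. The remaining peak in the body, 0.63 kb wide, lay at a C11orf58 promoter.

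SOX13 (ENSG00000143842.15, chr1:204073115-204127743, plus strand) had a 2.61 kb peak (chr1:204072781-204075390) over its canonical start. This peak also lay at the promoter of ENSG00000286572. Within the gene, 2 peaks of 0.81 kb lay in intron 1. A 1.56 kb peak lay in intron 4 and was also a promoter peak, within 3 kb of internal SOX13 start sites. Peaks covered 9.99% of the gene body, and 4 of 9 start sites lay in a peak. A cluster of 3 peaks, the widest 2.68 kb, lay 72.5 to 80.5 kb upstream. That widest peak lay at the promoter of ENSG00000286383. The region of this cluster ranked 2045th, and the best region overlapping SOX13 ranked 3423rd, neither past the slope-1 point.

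**Figure D4:**
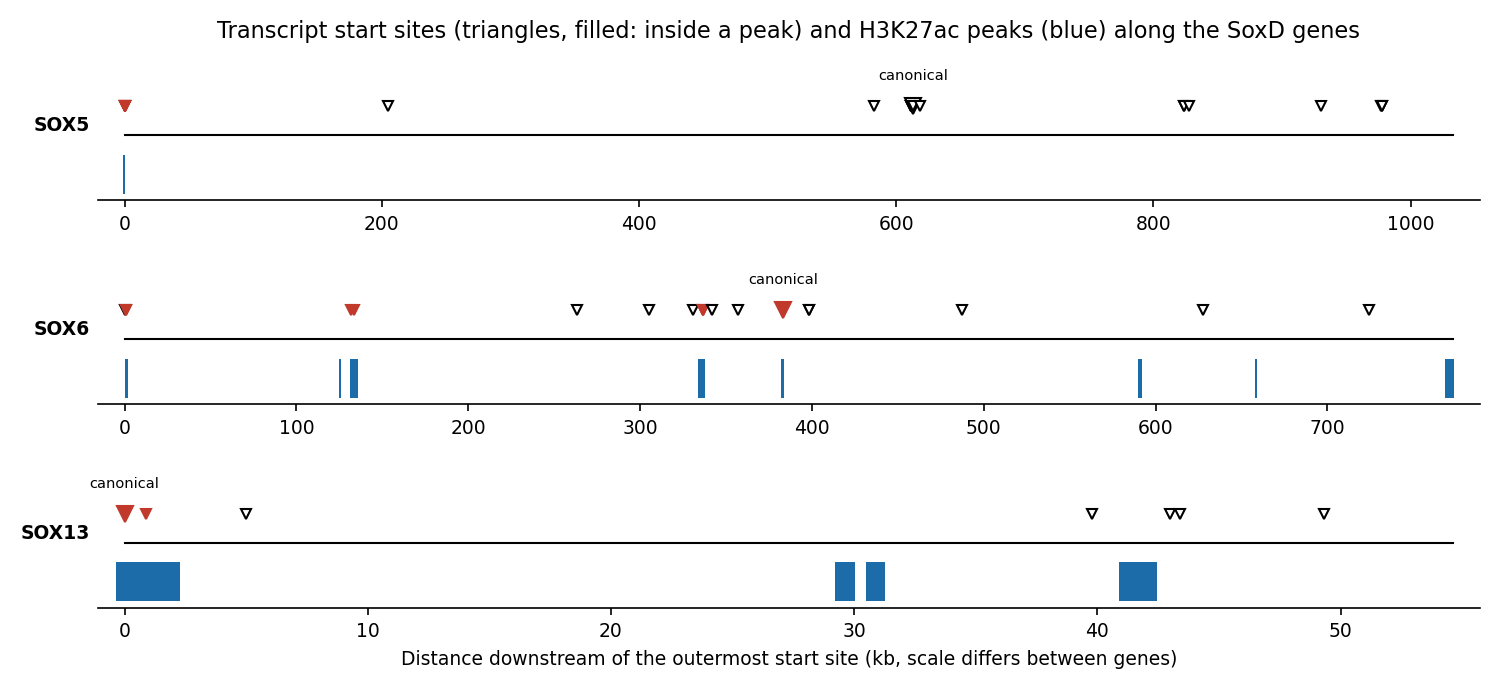
Annotated transcript start sites (triangles) and H3K27ac peaks (blue) along SOX5, SOX6 and SOX13, by distance downstream of the outermost start in kb, with a scale of its own for each gene. Filled triangles are starts inside a peak and the large triangle is the canonical start. In SOX5 the 5 filled starts sit at the outer end, in SOX6 the 7 filled starts fall at 4 places, and in SOX13 the 4 filled starts sit at the outer promoter.

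Among the 13 other SOX genes, 5 had a promoter peak (SOX1, SOX2, SOX4, SOX12 and SOX18), beside 63.4% of all protein-coding genes. No region overlapping the 13 genes lay past the slope-1 point, beside 7.58% of all protein-coding genes. With 13 genes, nothing particular to them was read from these counts. SOX12 and SOX18 had 22.53 and 20.62 kb of acetylated sequence within 100 kb, more than SOX8 and SOX13. SOX1 and SOX2, which maintain neural progenitors, had 5.64 and 2.2 kb.

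Genes that act with SOX10 or below it were counted in lists that carry no independent weight, having been drawn up with earlier results known. Of 16 partners and regulators of SOX10, 12 had a promoter peak, which is near the 63.4% of all protein-coding genes, and the median acetylated sequence was 3.02 kb beside 4.35 kb for all protein-coding genes. Regions past the slope-1 point overlapped 4 of the 16, beside 7.58% of all protein-coding genes: MITF, the melanocyte master regulator (rank 210), TFAP2A, a neural crest factor (rank 65), ZEB2 and POU3F1. MITF had 12 peaks in its body but only 0.88 kb of acetylated sequence within 100 kb of its outermost start. The median above therefore leaves out acetylation further inside long genes. PAX3, which acts with SOX10 on MITF, had a 530 bp promoter peak. KIT, TFAP2B, FOXD3 and EDN3 had no promoter peak.

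Of 14 melanocyte and Schwann cell targets of SOX10, 10 had a promoter peak, again near the 63.4% of all protein-coding genes, with a median of 7.23 kb. PMEL, a melanosome protein gene (rank 220), and MBP, a myelin gene (rank 228), had regions past the slope-1 point. TYR and TYRP1, which encode melanin synthesis enzymes, and NRCAM, a cell adhesion gene, had no promoter peak. Of 12 cartilage targets of SOX9, SOX5 and SOX6, 7 had a promoter peak, also near that share, with a median of 3.8 kb. COL9A3 had a region ranked 263rd, and COL2A1, the type II collagen gene, had a 3160 bp promoter peak, while ACAN and COL9A1 had none. The labelled cell type was checked in the same way: promoter peaks were present at 7 of 9 melanocytic and neural crest markers, 2 of 5 chondrocyte markers, 0 of 4 skeletal muscle markers, 0 of 3 leukocyte markers and 0 of 3 epithelial markers, beside 63.4% of all protein-coding genes. The share at melanocytic and neural crest markers was thus not far from the general rate.

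The sequence of the SOX10 region was compared with that of all other peaks. SOX sites (ACAAAG and ACAATG, both strands) occurred 50 times in its 13 peaks, or 0.834 per kb against 1.02 per kb in the other peaks, a ratio of 0.822. E-boxes CATGTG, the form bound by MITF, occurred at 0.701 per kb against 0.521 per kb in all other peaks. Other promoter peaks had 0.423 per kb and other distal peaks 0.735 per kb, while the 7 distal peaks of the region held 22 in 21.96 kb. The peaks had a median GC content of 56.4% and a CpG ratio of 0.256, beside 47.7% and 0.259 in other distal peaks and 58.2% and 0.642 in other promoter peaks. Against other peaks within 2 percentage points of GC content of a peak in the region, the SOX site ratio was 0.863.

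The flexible ATF/CREB motif TGANNTCA, a loose form of the element bound by ATF1 and the related CREB proteins, occurred 35 times in the peaks of the SOX10 region, at 0.584 per kb against 0.466 per kb in all other peaks and 0.642 per kb in other distal peaks. In the 7 distal peaks of the region alone it occurred at 0.41 per kb, so that the direction depended on which peaks were compared. The AP1 motif TGAGTCA occurred 8 times in the peaks of the region, at 0.133 per kb against 0.151 per kb. The TFAP2 motif GCCNNNGGC occurred 45 times, at 0.751 per kb against 0.802 per kb in all other peaks. Among distal peaks the order was the opposite, at 0.956 per kb in the region against 0.383 per kb elsewhere. The break of 350 bp, of which 141 bases are printed above, held 6 CATGTG matches, 2 of them overlapping, in a stretch rich in CA repeats. It was picked because it held the most CATGTG matches per base of the 12 breaks, so it does not stand for the others. The breaks of 4550 and 5530 bp held 5 each, and every other break held 1 or 0.

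**Figure D5:**
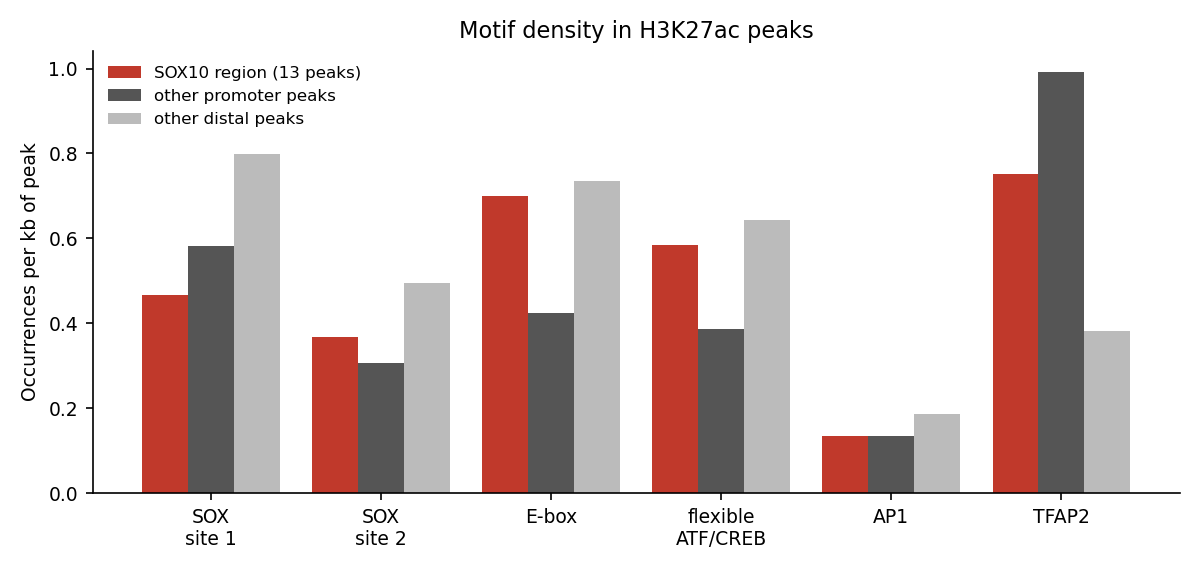
Occurrences per kb of peak of 6 motifs in the 13 peaks of the SOX10 region (red), other promoter peaks (dark grey) and other distal peaks (light grey), both strands counted. SOX site 1 is ACAAAG, SOX site 2 is ACAATG, the E-box is CATGTG, flexible ATF/CREB is TGANNTCA, AP1 is TGAGTCA and TFAP2 is GCCNNNGGC. The SOX10 region has 0.467 of SOX site 1 per kb, below the promoter peaks (0.583) and the distal peaks (0.799).

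Facing pairs of SOX sites, to which SoxE dimers are known to bind, were searched as ACAANG followed after 3 to 5 bases by its reverse complement. This motif was added after the data had been seen. The SOX10 region held none, and 1.27% of other peaks held at least 1. The 4.27 kb peak beside SOX8 held 2 copies, each with a spacing of 3 bases, at chr16:972676-972690 and chr16:972737-972751. No peak in the body or at a promoter of the 6 genes held one, and peaks of 2.62 and 2.1 kb on the 3′ side of SOX10, 115.3 and 88.3 kb from its outermost start, held 1 each.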

How the data were processed

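H3K27ac ChIP-seq was performed on 3 samples of SU-CCS-1 cells, with 3 input samples. Reads were mapped by the authors to hg38 (BWA 0.7.10-r789, per the submitters' processing notes). They removed duplicates, called broad peaks with MACS2 (version 2.2.6) over input and removed denylisted regions. They deposited 1 list of 30784 peaks in 4 columns (chromosome, start, end, name). How replicates were combined for this list is not given in the sources used here, and the list holds no read counts: the study's methods give an approximate depth per library, but the reads behind a peak cannot be derived from the list. Broad calling joins nearby enriched stretches, so widths depend on signal and on that rule.

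Genes and transcripts were taken from GENCODE version 44, with coordinates counted from 1. Promoter peaks had any base within 3 kb of any transcript start. Peaks within 12.5 kb were joined, ranked by summed width and divided where the scaled curve reached a slope of 1. Motifs were counted on both strands with overlaps kept. RefSeq promoters matched SOX5, SOX6 and SOX13. The named genes were the 6 members, genes at their described peaks, the other SOX genes, lists of SOX10 partners and targets, cartilage targets and cell type markers, and the 5 genes nearest SOX10 in rank. Members and lists were chosen with earlier results of these data known. Some members of the lists and some sequence are not reported here. No test was run. Python 3.11.15, numpy 2.4.6 and matplotlib 3.10.9 were used, and the scripts were tested on simulated data.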

Additional observations from a re-analysis of the deposited data

How the results depend on the processing

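No paired analysis was possible because the list merges the samples and no result comes from a test, and for the same reason no replicate could be left out. Of 26 alternatives to the 6 main results, 13 stayed within 1.5 times the main value and 13 moved further. A reversal of direction could be scored only for the SOX site ratio, which stayed below 1 in its alternatives. The other main results are counts, sums and ranks that cannot reverse. With the widest 25% of peaks, 3 genes (SOX10, SOX6 and SOX13) had a promoter peak, beside 26.9% of protein-coding genes. The 76 neighbourhood peaks became 34 within 50 kb, 21 in gene bodies alone, 43 among the widest 50% of peaks and 29 among the widest 25%. Acetylated sequence around SOX10 was 56522 bases within 50 kb, and its rank stayed between 3 and 5 over all settings. The SOX10 region ranked 16th with joining over 5 kb and 23rd by span. Genes past the slope-1 point numbered 1, SOX10, with joining over 5 kb (beside 5.23% of protein-coding genes) and over 25 kb (beside 11%). With peaks near start sites left out the number was also 1, SOX10, beside 2.43% of protein-coding genes. The SOX site ratio was 0.424 in the central 200 bases of each peak, where the region held 1 occurrence in 2600 bases, and 0.528 in the 7 distal peaks of the region. Of 39 alternatives for single genes, 21 moved by over 1.5 times. The list gives no height or read count for a peak, so that an uncalled locus and one with little acetylation cannot be told apart.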
